A study of Mus musculus with 5 samples.

Results

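A set of 8 regulators of the naive and central memory T cell state was followed cell by cell in T cells of the mouse brain: Tcf7, Lef1, Klf2, Ccr7, S1pr1, Satb1, Bach2 and Foxp1. These 8 genes, the members of the set, were listed by name among 52542 gene rows, with earlier results of these data known. A well with 1 sorted cell was kept if it had 400 or more unique molecular identifiers (UMIs, each marking 1 captured RNA molecule), spike-ins not counted, of which no more than 30% belonged to mitochondrial genes. By this rule 1482 of 1900 wells were kept. A total of 3319 UMIs of the 8 genes lay in 656 cells, or 44.3% of the kept cells (exact binomial 95% interval 41.7% to 46.8%).

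The cells came from brain parenchyma without the choroid plexus and were sorted as T cells by surface CD45 and T cell receptor beta without CD11b. In the treated group, 3 mice (TAT-CRE 207, 208 and 215, aged 18, 18 and 19 weeks) had received TAT-CRE, a Cre recombinase that enters cells, into the brain ventricles. In the control group, 2 mice (PBS 216 and 218, aged 19 and 16 weeks) had received PBS by the same route. All 5 carried Grl1loxP/loxP alleles and had been exposed to foot shocks, 14 of 1 mA on day 1 and 5 of 0.7 mA on day 2, and cells were taken on day 14 after the stress. The design aimed at the glucocorticoid receptor of the choroid plexus, an epithelium that was not assayed here. The receptor gene Nr3c1 in the sorted T cells was at 175, 141 and 156 CPM (UMIs scaled to 1000000 in all per library) in TAT-CRE mice, against 191 and 222 CPM in PBS mice, which does not check the choroid plexus. The labels do not say if a library held pooled animals, so p-values measure the spread between these 5 libraries.

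Naive and central memory T cells recirculate between blood and lymph nodes, while tissue-resident cells stay in organs such as the brain. Tcf7 (TCF1) and its relative Lef1 are HMG-box transcription factors that keep T cells naive or memory-like. Klf2 is a zinc finger factor that drives the egress receptor S1pr1, and Ccr7 is the chemokine receptor that guides cells into lymph nodes. Satb1 organises chromatin in thymocytes and naive T cells, Bach2 represses effector genes, and the forkhead factor Foxp1 keeps naive T cells quiescent. Cxcr6, the receptor for the chemokine CXCL16, is carried by many resident memory and effector cells.

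Each mouse gave 274 (PBS 218) to 311 (TAT-CRE 207) kept cells. These held 692346, 362457 and 588185 UMIs in TAT-CRE 207, 208 and 215, against 554994 and 839188 UMIs in PBS 216 and 218. Depth was thus lowest in TAT-CRE 208 and highest in PBS 218. PBS 218 also lost 102 wells to the UMI minimum and 4 to the mitochondrial limit, against 15 to 48 and 29 to 60 wells in the other mice. The part of all UMIs that came from ribosomal RNA genes was 28.3% for TAT-CRE 208, against 43.9% to 48.0% elsewhere. The libraries used the same 384 cell barcodes under 5 different pool barcodes. T cell markers were found in 92.0% of kept cells. The 20 empty wells had no UMI of the 8 genes among 1095 UMIs, which allows up to 2740 CPM for counting error only, and they held 2 UMIs of Cxcr6.

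Detection of the 8 genes was sparse and went with the depth of the cell. Tcf7 had 1157 UMIs in 346 cells (23.3%), Klf2 546 UMIs in 188 cells (12.7%) and Foxp1 449 UMIs in 146 cells (9.85%). Lef1 had 378 UMIs in 115 cells (7.76%), S1pr1 341 UMIs in 105 cells (7.09%) and Satb1 201 UMIs in 67 cells (4.52%). Ccr7 was found in 57 cells with 184 UMIs (3.85%) and Bach2 in 20 cells with 63 UMIs (1.35%). Cells with a UMI of any of the 8 had a median of 2273 UMIs, against 1296.5 in cells with none. With every cell brought to 400 UMIs, as the exact expectation over all draws, 23.5% of cells had one of them.

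A cell that held one of these transcripts usually held more than 1 UMI of it. The mean per positive cell lay between 2.90 UMIs for Klf2 and 3.34 UMIs for Tcf7. Over the 1502 genes found in 5% to 25% of cells, the median of this mean was 2.53 UMIs. Set against those genes, the members stood at the 73.3rd (Klf2) to the 91.3rd (Tcf7) percentile. Ccr7, Satb1 and Bach2 were found in under 5% of cells and are thus ranked against genes found in more cells. The highest count in 1 cell was 30 UMIs of Lef1, in a PBS 218 cell that also had 9 of Tcf7, 8 of Klf2, 6 of S1pr1 and 2 of Cd4 and no UMI of Cxcr6.

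The levels of the 8 genes in the mice, summed over all kept cells, came first. In such sums, fewer positive cells and less RNA per cell cannot be told apart. Tcf7 was at 384, 488 and 354 CPM in TAT-CRE mice, against 281 and 417 CPM in PBS mice. Lef1 was at 86.7, 168 and 96.9 CPM in TAT-CRE mice, against 86.5 and 181 CPM in PBS mice. For both HMG-box factors, the values of the groups overlapped, and the log2 fold change was 0.13 ± 0.23 (SE) for Tcf7 and -0.33 ± 0.35 for Lef1.

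In the axis of exit and homing, Klf2 and Ccr7, but not S1pr1, were highest in 1 PBS mouse. Klf2 was at 153, 149 and 173 CPM in TAT-CRE mice, against 97.3 and 274 CPM in PBS mice. S1pr1 was at 67.9, 185 and 79.9 CPM in TAT-CRE mice, against 95.5 and 151 CPM in PBS mice. Ccr7 was at 60.7, 16.6 and 28.9 CPM in TAT-CRE mice, against 48.6 and 110 CPM in PBS mice. PBS 218 had the highest Klf2 and Ccr7 of the 5 mice, TAT-CRE 208 the highest S1pr1, and the groups overlapped for all 3. The log2 fold change was -1.13 ± 0.58 for Ccr7 (edgeR adjusted p = 0.999), -0.28 ± 0.38 for Klf2 and -0.33 ± 0.37 for S1pr1. Without PBS 218 it became 0.61 for Klf2, 0.26 for Lef1, -0.47 for Ccr7 and -0.0034 for S1pr1, and without TAT-CRE 208 it was -0.67 for S1pr1.

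The remaining 3 nuclear regulators had close means. Satb1 was at 65.0, 82.8 and 42.5 CPM in TAT-CRE mice, against 75.7 and 70.3 CPM in PBS mice. Bach2 was at 15.9, 41.4 and 11.9 CPM in TAT-CRE mice, against 19.8 and 22.6 CPM in PBS mice, and 53.3% of its UMIs in TAT-CRE 208 came from 1 cell. Foxp1 was at 170, 177 and 116 CPM in TAT-CRE mice, against 135 and 148 CPM in PBS mice. In each case the PBS values lay within the range of the TAT-CRE values. Their log2 fold changes were -0.32 ± 0.39 for Satb1, -0.09 ± 0.74 for Bach2 and 0.03 ± 0.29 for Foxp1.

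**Figure D1:**
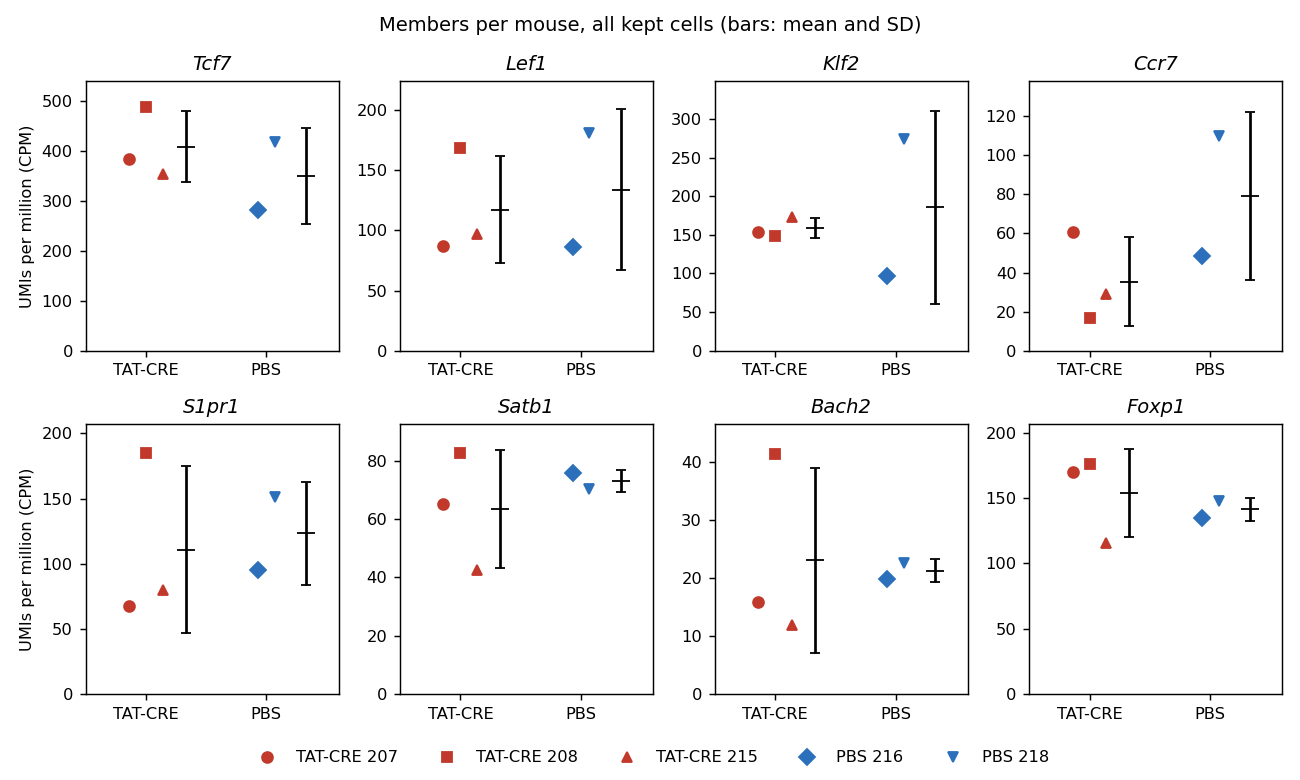
CPM (y axis) of the 8 genes over all kept cells of each mouse, TAT-CRE mice at the left and PBS mice at the right of each panel, with the mean and SD beside the points. The groups overlap in every panel, and PBS 218 is highest for Lef1 (181 CPM), Klf2 (274 CPM) and Ccr7 (110 CPM).

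No member was called between TAT-CRE and PBS mice in any direction, at an adjusted p of 0.999 for each of the 8. By edgeR's quasi-likelihood test 0 of 6341 genes were called (0%), with 135 higher and 104 lower at an unadjusted p under 0.05, and DESeq2 called 1 gene. No member had values that did not overlap between the groups, while 17.6% of the genes tested had. Of the members, 6 had a log2 fold change below 0, with a median of -0.30, against a median of 0.00 over all genes tested. Of 25 further genes linked to the naive and memory state, 21 were tested, with none called and a median of -0.06. Their smallest p belonged to Pik3ip1, an inhibitor of PI3K, at 47.7, 69.0 and 37.4 CPM in TAT-CRE mice, against 9.01 and 20.3 CPM in PBS mice (log2 fold change 1.65 ± 0.61, edgeR adjusted p = 0.999). The next was Il6st, the shared signalling chain of IL-6 type receptors, at 20.2, 5.52 and 13.6 CPM in TAT-CRE mice, against 39.6 and 54.8 CPM in PBS mice (-1.79 ± 0.69, adjusted p = 0.999). Of 25 resident and effector genes, 23 were tested, with none called and a median of 0.12. Klrg1, an inhibitory receptor of effector cells (1.54 ± 0.84), and Rgs1, a brake on chemokine receptor signalling (0.50 ± 0.30), had the smallest p of that list, both with an adjusted p of 0.999.

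How many cells held any of the 8 genes also turned on PBS 218. Without thinning this share was 47.6%, 32.7% and 40.9% in TAT-CRE mice, against 39.9% and 61.7% in PBS mice. At 400 UMIs per cell it was 22.4%, 23.0% and 22.0% in TAT-CRE mice, against 20.8% and 29.99% in PBS mice. The 3 TAT-CRE mice were thus close to each other, with 1 PBS mouse below and 1 above them. The means were 22.4% ± 0.476 in TAT-CRE mice, against 25.4% ± 6.50 in PBS mice (SD over 3 and 2 mice), and the difference of -2.95 points became 1.64 points without PBS 218.

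Transcripts of the 8 genes were found in the same cells more often than independence within each mouse would give. At 400 UMIs per cell, the 28 pairs were seen together 104 times as an expectation, against 51.5 if independent, a ratio of 2.01. The ratio was 2.33, 2.55 and 2.21 in TAT-CRE mice, against 1.31 and 1.63 in PBS mice. All 5 mice were above 1, and the TAT-CRE mice were above the PBS mice with no overlap. That difference was not tested, nor how often ratios of other genes separate these groups. For single members with the rest, the groups overlapped for Klf2, S1pr1 and Bach2, and not for Tcf7, Lef1, Ccr7, Satb1 and Foxp1. These ratios share pairs with each other and are not separate observations. The share of other genes with such a separation was not computed. Klf2 was at 1.92, 1.92 and 2.08 in TAT-CRE mice, against 1.93 and 1.85 in PBS mice. The T cell receptor gene Trbc2, used for comparison, met the members at a ratio of 1.03 (0.774 to 1.12 over the mice). With ribosomal RNA genes left out the ratio was 2.01.

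At least 3 of the 8 genes were present in 96 cells, against 40.5 expected if detection were independent within each mouse. These cells, counted without thinning, held 1267 UMIs or 38.2% of all member UMIs. Their median was 3310 UMIs per cell, against 1662.5 over all kept cells. The expectation takes no account of depth, and deeper cells hold more genes. The excess over it thus cannot be told apart from the spread of depth. The numbers were 19, 17 and 13 cells in TAT-CRE mice, against 12 and 35 cells in PBS mice. Each mouse had more of them than its expected 9.55, 2.91 and 4.39 in TAT-CRE mice, against an expected 3.66 and 19.98 in PBS mice. Of the 96 cells, 53 had a Cd8a or Cd8b1 UMI, 9 a Cd4 UMI and 20 a Cxcr6 UMI. An Ighm UMI, of a B cell marker, was in 19 of them, while 7.76% of all kept cells had one. The cell with the most kinds, 7 of 8 with only Bach2 missing, came from TAT-CRE 207.

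Among the pairs, those of Lef1, Ccr7, S1pr1 and Satb1 had most of the high ratios. Lef1 with Satb1 had a ratio of 4.98 (2.12 to 8.88 over the mice), Lef1 with Ccr7 4.71 and Lef1 with S1pr1 3.95 (1.74 to 5.74). Ccr7 with S1pr1 had 4.47, Satb1 with S1pr1 3.54 and Klf2 with S1pr1, the factor and the receptor gene it drives, 2.99 (1.62 to 3.67). The pair of HMG-box factors, Tcf7 and Lef1, had 2.21, with 2.35 to 3.04 in TAT-CRE mice, against 1.24 and 1.35 in PBS mice. Of these pairs, Lef1 with Ccr7 fell to 0 in TAT-CRE 208, where Ccr7 was found in 3 cells, while the others were above 1 in all 5 mice. Foxp1 joined the other 7 least, with 1.35 over all mice and 2.10, 1.52 and 1.37 in TAT-CRE mice, against 0.688 and 0.987 in PBS mice. Without thinning, where the expectation takes no account of depth, 20 cells had both Lef1 and Satb1, against 5.40 expected if independent. On the same terms 15 had both Lef1 and Ccr7, against 5.23. Thinned values of Lef1 with Satb1, Lef1 with Ccr7, Ccr7 with S1pr1 and Satb1 with S1pr1 rest on under 1 expected cell each. So do those of all pairs with Bach2.

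**Figure D2:**
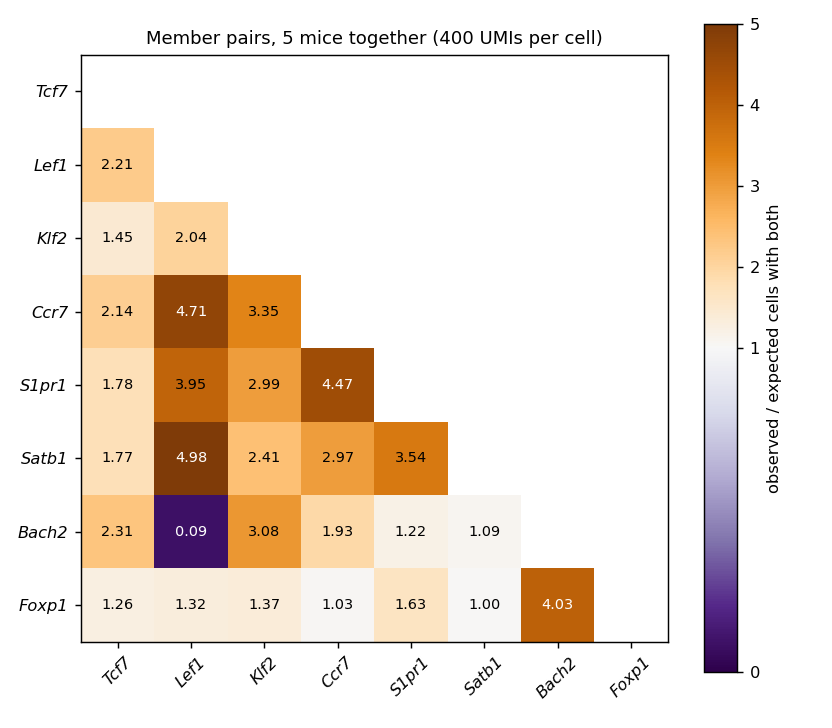
Ratio of observed to independently expected cells with both genes of a pair, at 400 UMIs per cell, for the 28 pairs over the 5 mice, with 1 as white. Lef1, Ccr7, S1pr1 and Satb1 hold most of the high ratios, up to 4.98, though most of these rest on under 1 expected cell. The Foxp1 row is mostly near 1, and the Bach2 row rests on 20 cells.

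The upstream sequence of genes whose transcripts met in the same cells is shown for Lef1, Klf2 and Satb1, since Lef1 and Satb1 had the highest thinned ratio of any pair and Klf2 is the factor among the members with a short, frequent site. The 250 bases before the first listed start are given 5′ to 3′ on the strand of the gene, from RefSeq on GRCm38.p6, with matches in capitals. Entries were found for 6 of the 8 members; Ccr7 and S1pr1 had none.
Lef1, chr3:131110047-131110296, plus strand: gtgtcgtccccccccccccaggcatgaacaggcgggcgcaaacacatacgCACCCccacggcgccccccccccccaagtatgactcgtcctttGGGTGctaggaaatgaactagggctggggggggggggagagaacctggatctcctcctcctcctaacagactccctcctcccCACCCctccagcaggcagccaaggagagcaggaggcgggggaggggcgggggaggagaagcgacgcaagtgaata
Klf2, chr8:72318812-72319061, plus strand: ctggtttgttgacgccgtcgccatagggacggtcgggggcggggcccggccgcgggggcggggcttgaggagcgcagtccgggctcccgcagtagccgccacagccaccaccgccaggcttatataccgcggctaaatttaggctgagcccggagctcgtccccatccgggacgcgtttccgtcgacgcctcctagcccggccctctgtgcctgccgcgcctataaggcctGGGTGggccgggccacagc
Satb1, chr17:51833291-51833540, minus strand: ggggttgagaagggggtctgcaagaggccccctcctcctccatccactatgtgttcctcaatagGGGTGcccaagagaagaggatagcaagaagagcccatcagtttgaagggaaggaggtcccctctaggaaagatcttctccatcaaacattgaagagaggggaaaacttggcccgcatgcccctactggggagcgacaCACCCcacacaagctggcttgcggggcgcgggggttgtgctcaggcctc

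Capitals mark CACCC on either strand, written GGGTG where it lies on the other one, the core of KLF sites, of which Lef1 has 3, Klf2 1 and Satb1 2. Such a match is found in 52.0% of 32851 promoters, so its presence here is a description of the letters. The TCF and LEF core CTTTGA, or TCAAAG on the other strand, was in none of these 3 windows and in 13.8% of promoters. The forkhead core TGTTTAC, or GTAAACA on the other strand, was in none and in 3.17% of promoters. Only CACCC was matched in these windows, so no match of 1 motif overlaps a match of another. Lef1 and Satb1 have further listed starts, whose windows are not shown and differ in their matches. Among them, the window of start 4 of Lef1 has 2 TCAAAG matches.

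Il7r, the IL-7 receptor chain of naive and memory cells, had a ratio of 1.23 with the members at 400 UMIs per cell and was below 1 in TAT-CRE 208 (0.709).

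Cxcr6, Ccl5, Id2 and S100a4 met the members less often than independence would give. The other genes of the resident and effector list were not compared in this way. No stated rule picked Ccl5, Id2 and S100a4 from it, so they do not stand for the list. Ccl5 and S100a4 were also the lowest in the search over all genes below. Id2 and Ccl5 had the smallest p of the list in the Cxcr6 comparison. Cxcr6 had a ratio of 0.588 with the members: 0.642, 0.628 and 0.450 in TAT-CRE mice, against 0.690 and 0.521 in PBS mice. Ccl5, a chemokine of effector T cells, had 0.691, Id2, a regulator of effector differentiation, 0.708, and S100a4 0.735. Each was below 1 in all 5 mice. Cd8a also stood below 1 (0.733), and Cd4 was at 1.24 with 1 mouse below 1. Among single members, Ccr7 had the lowest ratio with Cxcr6 (0.148) and Satb1 the highest (0.810). Without thinning the ratio of all members with Cxcr6 was 0.875, with 0.479 for Ccr7 (9 cells against 18.8 expected), 1.06 for Satb1 and 1.48 for Bach2. Also without thinning, all members were at 0.926 with Ccl5, 0.925 with Id2, 0.954 with S100a4 and 1.03 with Cd8a.

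**Figure D3:**
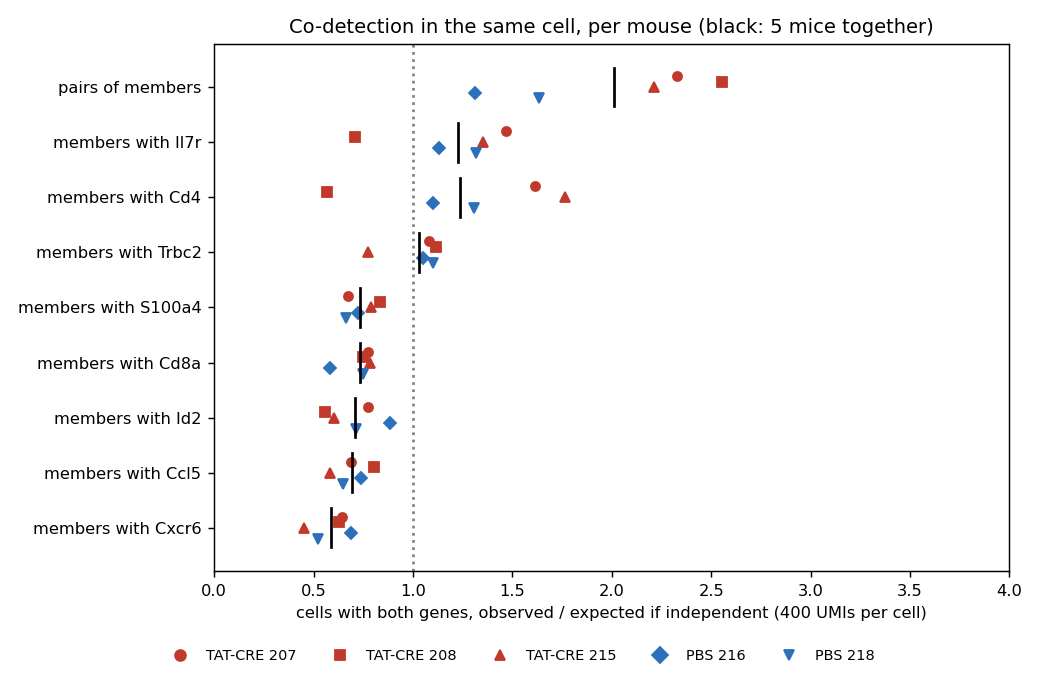
Observed over independently expected cells with both genes (x axis) at 400 UMIs per cell, for pairs of members and for members with 8 other genes, 1 point per mouse and a black line for the 5 mice together. Pairs of members (2.01) lie right of 1, Trbc2 (1.03) at 1, and S100a4, Cd8a, Id2, Ccl5 and Cxcr6 (0.588) left of 1 in every mouse.

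A search over all genes found in at least 5% of cells placed Ccl5, S100a4 and Cxcr6 among those that went least with the members. For 1765 such genes, Pearson's r across cells with the summed members, on log2(1 + thinned UMIs), was averaged over the 5 mice, and 156 had one sign in all. Highest were Atp1b3, a sodium pump subunit (0.11), Pip4k2a, a lipid kinase (0.10), the pseudogene Rpl13-ps6 (0.09), Macf1, a cytoskeletal linker (0.09), and the ribosomal protein gene Rps19 (0.09). Lowest were Ccl5 (-0.12), S100a4 (-0.08), Selplg, the P-selectin ligand (-0.07), Hopx (-0.07) and Cxcr6 (-0.07). These correlations are weak, share library and depth, and are given as a description over 1482 cells. They rest on the same cells as the ratios above and are no separate support for them. How many of the 1765 genes would share a sign at random was not computed.

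Levels were then compared between cells with a Cxcr6 UMI, 433 in all, and the 1049 cells without one. Cxcr6 cells were deeper, with a median of 2007 UMIs against 1498, and 38.3% of them had a Cd8a UMI, against 25.5% of cells without Cxcr6. Without thinning, 44.6% of Cxcr6 cells had a member UMI, against 44.1% of cells without Cxcr6; at 400 UMIs per cell it was 18.8% of Cxcr6 cells and 25.5% of cells without Cxcr6. In every mouse the thinned share was lower in Cxcr6 cells: 17.2%, 21.4% and 16.4% in Cxcr6 cells of TAT-CRE 207, 208 and 215, with 16.0% and 22.9% in those of PBS 216 and 218. In cells without Cxcr6 it was 25.3%, 23.4% and 23.7% in the TAT-CRE mice, with 22.8% and 34.1% in the PBS mice. Cells with 2 or more Cxcr6 UMIs were at 15.6% and cells with exactly 1 were at 25.6%, close to cells with none.

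Tcf7 was lower in Cxcr6 cells of every mouse. It was at 236, 285 and 218 CPM in Cxcr6 cells of the TAT-CRE mice and 260 and 353 CPM in those of the PBS mice. In cells without Cxcr6 it was at 495, 547 and 402 CPM in the TAT-CRE mice, with 292 and 463 CPM in the PBS mice. The log2 fold change was -0.74 ± 0.17 (edgeR adjusted p = 0.273), so the gene did not pass over all genes tested. Over 17 alternatives the adjusted p ranged from 0.0422, with no filter on low counts, to 0.992, within cells with a Cd8 UMI. With the Cxcr6 class limited to cells of 2 or more Cxcr6 UMIs, the log2 fold change was -1.22. Within cells with a Cd8 UMI and no Cd4 UMI it was -0.87, but there PBS 216 went the other way, with 303 CPM in Cxcr6 cells and 240 CPM in cells without Cxcr6.

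Lef1 also had lower values in Cxcr6 cells of every mouse, by unequal amounts. It was at 77.5, 12.4 and 96.4 CPM in Cxcr6 cells of the TAT-CRE mice and 5.31 and 93.9 CPM in those of the PBS mice. In cells without Cxcr6 it was at 93.5, 213 and 97.1 CPM in the TAT-CRE mice, with 128 and 244 CPM in the PBS mice. TAT-CRE 208 and PBS 216, the mice with 1 Lef1 UMI in Cxcr6 cells, carried most of this difference, and TAT-CRE 215 showed next to none (log2 fold change -1.47 ± 0.50, edgeR adjusted p = 0.638). Within cells with a Cd8 UMI and no Cd4 UMI Lef1 was at -1.10, but Cxcr6 cells had 55.2 CPM against 52.5 CPM in cells without Cxcr6 of TAT-CRE 207, and 116 CPM against 93.3 CPM in TAT-CRE 215.

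Ccr7 had few UMIs in Cxcr6 cells of 4 of 5 mice. It was at 20.2, 0 and 6.43 CPM in Cxcr6 cells of the TAT-CRE mice and 0 and 85.3 CPM in those of the PBS mice. A count of 0 allows up to 37.1 CPM in TAT-CRE 208 and 15.9 CPM in PBS 216. In cells without Cxcr6 it was at 91.0, 21.3 and 37.0 CPM in the TAT-CRE mice, with 73.6 and 127 CPM in the PBS mice. In TAT-CRE 208 the limit of 37.1 CPM thus lies above its cells without Cxcr6, and no difference could be detected in that mouse. The highest level was in PBS 218, where 30 UMIs lay in 4 Cxcr6 cells and 20 of them in 1 cell of 8750 UMIs. That cell also had 14 UMIs of Tcf7, 14 of S1pr1, 12 of Klf2, 6 of Satb1, 9 of Cxcr6, 3 of Cd8a and 17 of Cd8b1. Whether it held more than 1 cell was not tested. The log2 fold change of Ccr7 was -2.19 ± 0.70 (edgeR adjusted p = 0.572), a fitted value that rests in part on classes at 0.

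S1pr1 and Klf2 were lower in Cxcr6 cells of 4 mice each. S1pr1 was at 50.6, 186 and 70.7 CPM in Cxcr6 cells of the TAT-CRE mice and 15.9 and 119 CPM in those of the PBS mice. In cells without Cxcr6 it was at 80.9, 185 and 83.2 CPM in the TAT-CRE mice, with 136 and 174 CPM in the PBS mice. Klf2 was at 94.4, 99.0 and 129 CPM in Cxcr6 cells of the TAT-CRE mice and 106 and 245 CPM in those of the PBS mice, while cells without Cxcr6 had 197, 163 and 190 CPM in the TAT-CRE mice, with 92.7 and 295 CPM in the PBS mice. The exception for S1pr1 was TAT-CRE 208, where both classes were level, and for Klf2 PBS 216, where Cxcr6 cells were higher. The log2 fold changes were -0.81 ± 0.39 for S1pr1 (adjusted p = 0.843) and -0.54 ± 0.25 for Klf2 (adjusted p = 0.842).

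Satb1 averaged 39.9 ± 26.7 CPM in Cxcr6 cells and 77.3 ± 22.8 CPM in cells without Cxcr6 (SD over 5 mice), with a log2 fold change of -0.98 ± 0.51 (adjusted p = 0.892). TAT-CRE 207 went the other way for Satb1, with 70.8 CPM in Cxcr6 cells and 60.7 CPM in cells without Cxcr6. Foxp1 averaged 146 ± 124 CPM in Cxcr6 cells and 161 ± 35.1 CPM in cells without Cxcr6, with a log2 fold change of -0.50 ± 0.39 (adjusted p = 0.972). TAT-CRE 208 went the other way for Foxp1, with 359 CPM in Cxcr6 cells and 124 CPM in cells without Cxcr6. Bach2 averaged 23.0 ± 9.67 CPM in Cxcr6 cells and 22.4 ± 16.0 CPM in cells without Cxcr6, was lower in Cxcr6 cells of 3 mice and higher in those of 2, and was too low to be tested.

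**Figure D4:**
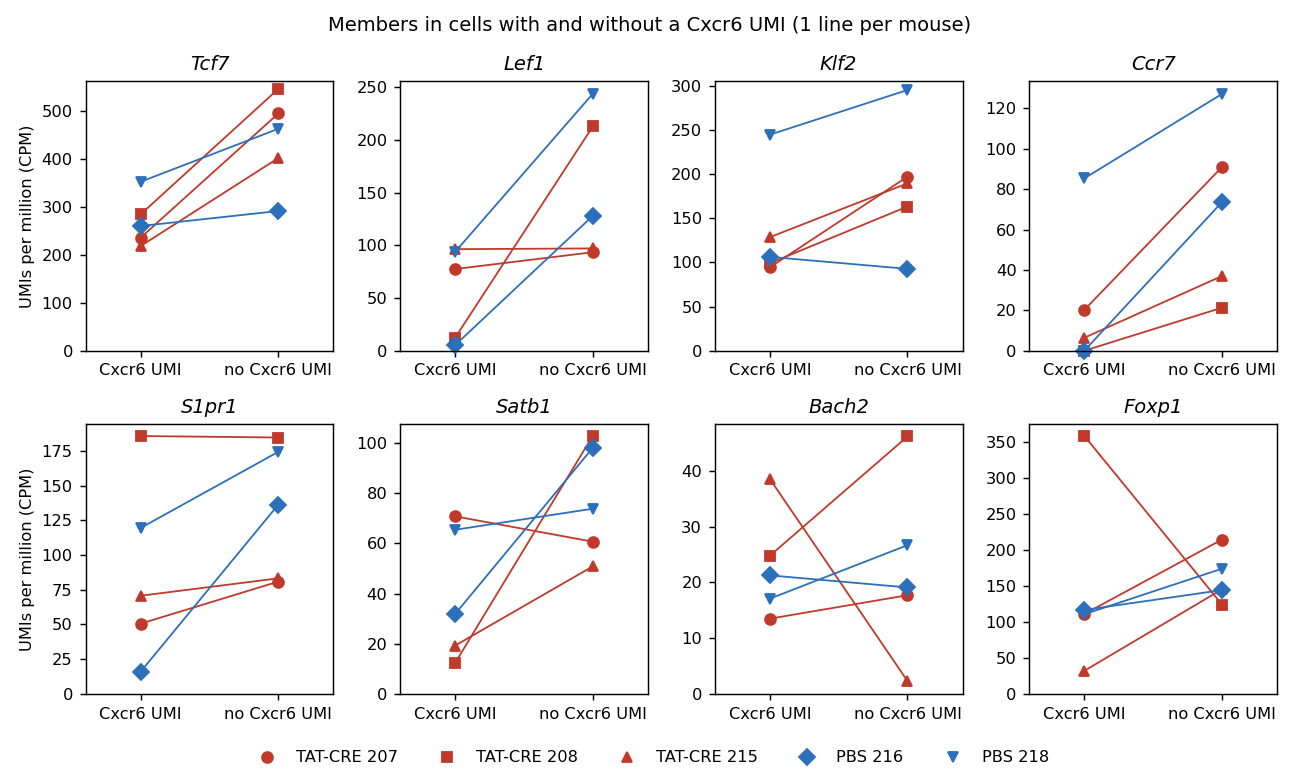
CPM (y axis) of the 8 genes in cells with a Cxcr6 UMI (left) and without one (right), with 1 line per mouse. Lines of Tcf7 and Lef1 end higher at the right in all 5 mice; for Ccr7 the 0 at the left in TAT-CRE 208 allows up to 37.1 CPM, above its right end (21.3 CPM); TAT-CRE 208 runs the other way for Foxp1 (359 and 124 CPM).

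Of the 7 members tested, all had a log2 fold change below 0 in Cxcr6 cells, with a median of -0.81, and none was called. All 3467 genes tested had a median of -0.07, with 56.9% below 0. Besides Cxcr6, which defined the classes, edgeR called 0 of 3467 genes (0%), with 87 higher and 119 lower at an unadjusted p under 0.05, and DESeq2 called 6. At that unadjusted threshold 3 of the 7 members were lower, where 3.43% of all genes tested were. Of the 25 partner genes of the naive and memory state 16 were tested and 13 were below 0, with a median of -0.35. Nsg2 was at 27.0, 0, 0, 0 and 11.4 CPM in Cxcr6 cells of TAT-CRE 207, 208, 215 and PBS 216 and 218, against 65.7, 60.4, 50.9, 46.3 and 71.8 CPM in cells without Cxcr6 of the same mice (-3.02 ± 0.79, edgeR adjusted p = 0.398). Il7r averaged 252 ± 86.4 CPM in Cxcr6 cells and 361 ± 79.0 CPM in cells without Cxcr6 (-0.58 ± 0.17, adjusted p = 0.556).

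Of 24 resident and effector genes other than Cxcr6, 18 were tested, 16 were above 0 in Cxcr6 cells and none was called, with a median of 0.29. Id2 averaged 1275 ± 56.2 CPM in Cxcr6 cells and 863 ± 72.5 CPM in cells without Cxcr6 (0.51 ± 0.09, edgeR adjusted p = 0.0689). Ccl5 averaged 3013 ± 968 CPM in Cxcr6 cells and 2255 ± 628 CPM in cells without Cxcr6 (0.34 ± 0.07, adjusted p = 0.0894). Id2 was called in 5 of the alternatives and Ccl5 in 3.

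The Cxcr6 difference was then compared between the treatments. None of 5764 genes (0%) differed in edgeR's interaction test, with 66 higher and 83 lower at an unadjusted p under 0.05, and DESeq2 called 0. Tcf7 had the smallest p of the members: the log2 fold change of Cxcr6 cells in TAT-CRE mice minus that in PBS mice was -0.74 ± 0.35 (edgeR adjusted p = 1). On the same scale Klf2 was at -0.79 ± 0.54, Lef1 at 1.28 ± 0.96 and S1pr1 at 1.10 ± 0.79, all with an adjusted p of 1. The signs were thus mixed, 4 above and 4 below 0. At an unadjusted p under 0.05, 1 of the 8 members, Tcf7, was lower, where 1.44% of all genes tested were. In the partner list Dapl1, and in the resident and effector list the chemokine gene Ccl4 and the protease gene Gzmb, had the smallest p (edgeR adjusted p = 1 for each). Gzmb was at 276, 532 and 57.8 CPM in Cxcr6 cells of TAT-CRE mice and 69.1 and 68.3 CPM in those of PBS mice, against 106, 238 and 39.3 CPM in TAT-CRE and 87.2 and 158 CPM in PBS cells without Cxcr6. Dapl1 had no UMI in Cxcr6 cells of the 3 TAT-CRE mice and 21.3 and 25.6 CPM in those of the PBS mice, against 35.4, 49.7 and 13.9 CPM in TAT-CRE and 16.4 and 32.8 CPM in PBS cells without Cxcr6. Its counts of 0 allow up to 10.1, 37.1 and 19.3 CPM in TAT-CRE 207, 208 and 215. The limit lies above both PBS values in TAT-CRE 208 and above the cells without Cxcr6 in TAT-CRE 215. Ccl4 was at 57.3, 161 and 25.7 CPM in Cxcr6 cells of TAT-CRE mice and 15.9 and 0 CPM in those of PBS mice, against 48.0, 17.8 and 18.5 CPM in TAT-CRE and 213 and 20.5 CPM in PBS cells without Cxcr6. PBS 216 was thus the one mouse with a high Ccl4 level in cells without Cxcr6.

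The members were found in cells of both coreceptor lineages and in cells with no coreceptor UMI. A Cd4 UMI without Cd8a or Cd8b1 was present in 85 cells, the reverse in 630, both in 25 and neither in 742. At 400 UMIs per cell, a member UMI was found in 28.0% of Cd4 cells, 21.8% of Cd8 cells and 24.2% of cells with neither. The Cd4 cells numbered 22, 19 and 23 in TAT-CRE mice, against 13 and 8 in PBS mice, so that single cells move their values. Per mouse the thinned share was 32.8%, 17.9%, 27.9%, 20.7% and 50.6% in Cd4 cells of TAT-CRE 207, 208, 215 and PBS 216 and 218, against 19.6%, 22.8%, 20.7%, 18.0% and 29.5% in their Cd8 cells. Cells with both coreceptors had a median of 2998 UMIs, the deepest of the 4 classes, and whether they hold more than 1 cell was not tested.

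Foxp1 had the clearest split by lineage, toward Cd8 cells. It was at 32.6, 127, 18.9, 39.7 and 0 CPM in Cd4 cells of TAT-CRE 207, 208, 215 and PBS 216 and 218. In Cd8 cells of the same mice it was at 180, 214, 115, 128 and 149 CPM. It was lower in Cd4 cells of all 5 mice, but these rest on 7 UMIs in 4 cells (log2 fold change -2.09 ± 0.71, edgeR adjusted p = 0.419). At an unadjusted p under 0.05, Foxp1 was the 1 member of 4 tested that was lower, where 3.71% of all genes tested were.

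Tcf7 and S1pr1 leaned toward Cd4 cells in 4 of 5 mice. Tcf7 was at 440, 845, 509, 79.4 and 862 CPM in Cd4 cells of TAT-CRE 207, 208, 215 and PBS 216 and 218, against 255, 254, 301, 263 and 413 CPM in their Cd8 cells. S1pr1 was at 130, 0, 170, 199 and 702 CPM in Cd4 cells, against 53.8, 173, 29.8, 60.7 and 164 CPM in Cd8 cells in the same order. PBS 216 was the exception for Tcf7 and TAT-CRE 208 for S1pr1. The log2 fold changes were 0.75 ± 0.39 for Tcf7 (edgeR adjusted p = 0.852) and 1.29 ± 0.72 for S1pr1 (adjusted p = 0.875). Klf2 was at -0.11 ± 0.76 (adjusted p = 0.998), and the other 4 members were too low to be tested. Lef1 in Cd4 cells was at 1245 CPM in PBS 218, 30 UMIs of it from the cell described above, and between 0 and 130 CPM in the other mice. Ccr7 had UMIs in 2 of 85 Cd4 cells, both of TAT-CRE 207, and in 30 of 630 Cd8 cells. In Cd4 cells of TAT-CRE 208, 215 and PBS 216 and 218, its count of 0 allows up to 127, 56.6, 119 and 95.7 CPM. Cd8 cells of these mice were at 0, 40.9, 20.2 and 189 CPM, so only in PBS 218 does the limit lie below them.

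**Figure D5:**
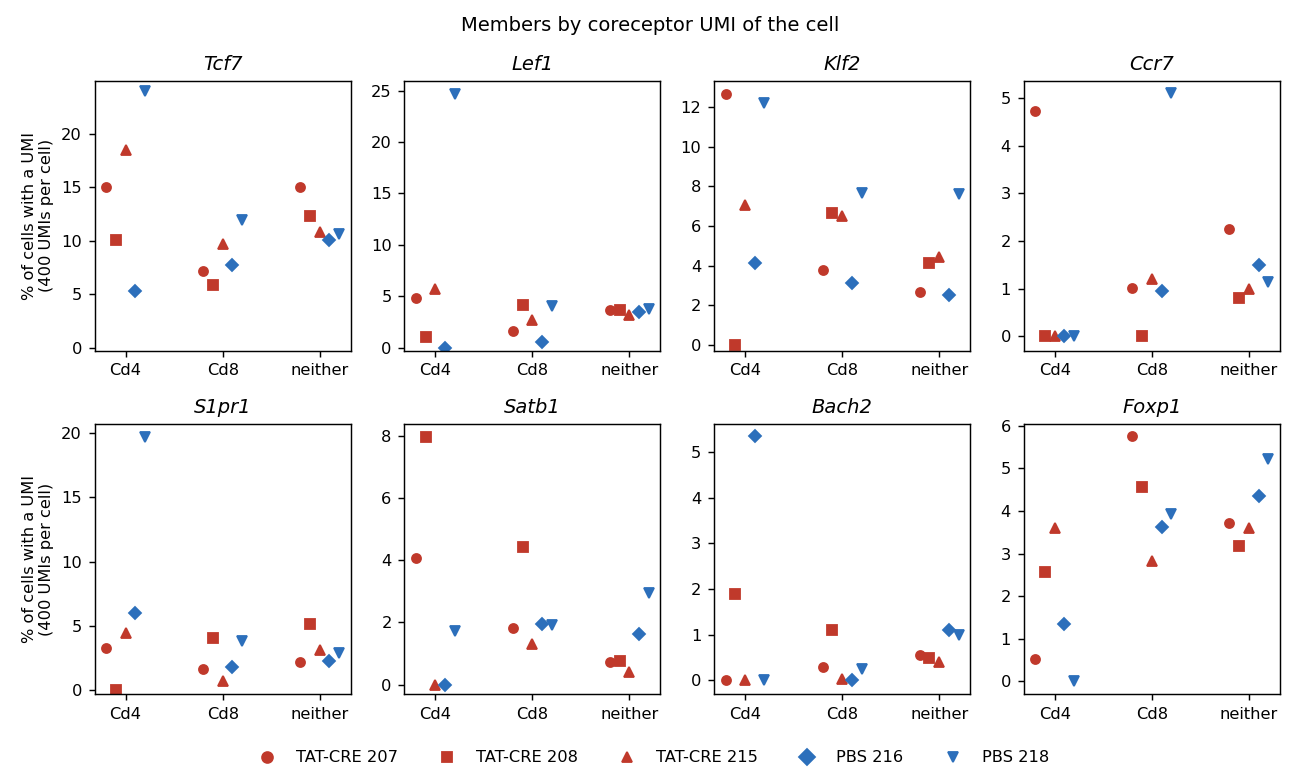
Share of cells with a UMI (y axis, percent, at 400 UMIs per cell) of the 8 genes in cells with a Cd4 UMI only, a Cd8a or Cd8b1 UMI only and neither, 1 point per mouse. Cd4 points spread widely (8 to 23 cells per mouse). Ccr7 is at 0 in Cd4 cells of 4 mice, where a count of 0 allows up to 56.6 to 127 CPM.

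Between Cd4 and Cd8 cells edgeR called 2 of 728 genes (0.275%) beside the coreceptor genes, and DESeq2 called 9. Both called genes were lower in Cd4 cells. Ccl5, of the resident and effector list, averaged 715 ± 375 CPM in Cd4 cells and 3175 ± 774 CPM in Cd8 cells (-2.17 ± 0.20, edgeR adjusted p = 1.37e-05). Ly6c2, a surface antigen gene outside the lists that is named after its values were seen, averaged 66.9 ± 47.0 CPM in Cd4 cells and 648 ± 164 CPM in Cd8 cells (-3.21 ± 0.48, adjusted p = 0.00175). Of the partner list 8 genes were tested and none was called; Ets1, a transcription factor of lymphocytes (0.57 ± 0.23), and Il7r (0.99 ± 0.40) had the smallest p, both with an adjusted p of 0.601.

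Within cells with a Cd8 UMI and no Cd4 UMI, none of 4011 genes (0%) was called between TAT-CRE and PBS mice by edgeR, with 69 higher and 54 lower at an unadjusted p under 0.05, and none by DESeq2. Of the 7 members tested, 5 had a log2 fold change below 0. Ccr7 was at 32.7, 0 and 40.9 CPM in Cd8 cells of TAT-CRE mice, against 20.2 and 189 CPM in those of PBS mice. The log2 fold change was -1.85 ± 0.98 (edgeR adjusted p = 1.00) and became 0.41 without PBS 218. The other members lay between -0.73 for S1pr1 and 0.48 for Lef1, the last at 53.8, 305 and 100 CPM in Cd8 cells of TAT-CRE mice, against 23.6 and 152 CPM in those of PBS mice. Of the other 2 lists the smallest p belonged to Pik3ip1 (1.47 ± 0.83) and Ets1 (-0.37 ± 0.25) and to Gzmb (1.13 ± 0.56) and Ccl4 (-1.58 ± 0.86), none called.

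Markers of other cells moved with the members in part. B cell markers, 4 of 8 detected and 305 of their 336 UMIs from Ighm, with Cd79a and Pax5 at 0, were in 12.2% of cells with a member UMI and in 5.57% of cells without one. Endothelial markers were in 19.2% of cells with a member UMI and in 11.5% of the others, from Ly6c1 and Pecam1 alone, with Cldn5 and Cdh5 at 0. Myeloid markers were in 5.64% of cells with a member UMI and in 4.00% of the others, with 180 of 185 UMIs from Cst3. Oligodendrocyte markers were in 10.7% of cells with a member UMI and in 6.42% of the others, with 322 of 323 UMIs from Mbp. Over the mice B cell markers summed to 95.3 to 163 CPM in TAT-CRE mice, against 70.3 to 94.1 CPM in PBS mice. Natural killer cell markers lay apart the other way, at 40.8 to 99.7 CPM in TAT-CRE mice, against 105 to 195 CPM in PBS mice. Of their 319 UMIs, 208 came from Eomes, and Ncr1 was in 1 cell. Of all genes tested between the groups, 17.6% also had values that did not overlap. Endothelial, myeloid, oligodendrocyte and T cell markers overlapped between the groups. These differences were not tested. Member cells were deeper, as given above, and the part of oligodendrocyte markers in the results was not tested. Without cells holding a UMI of a B cell, endothelial or myeloid marker other than Ly6c1 and Cst3, pairs of members had a co-detection ratio of 1.99, with 2.54, 2.33 and 2.37 in TAT-CRE mice, against 1.49 and 1.49 in PBS mice. In the same cells Tcf7 was at -0.83 on the log2 scale in Cxcr6 cells and Lef1 at -1.36. Genes overlapping a member on the genome held 0 to 18 UMIs in all, with 18 UMIs of Gm6934 beside 201 of Satb1 as the highest.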

How the data were processed

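For each well the authors deposited unnormalized UMI counts of every gene. The submitters' processing notes name bcl2fastq 2.15.0.4 and mm10. Which aligner and annotation they took, and whether strand was used, is not given in the sources used here. A deposited column of counts gives the cells sorted per well, per the file headers. The 8 members and the gene lists were chosen with earlier results of these data known.

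UMIs were summed per mouse, or per mouse and class of cells, and tested with edgeR 4.0.16 (quasi-likelihood, TMM, default filter; DESeq2 1.42.0 as an alternative; R 4.3.3), with Benjamini-Hochberg adjustment over all genes tested and a threshold of 0.05. Both classes of a comparison within mice come from the same animals, so mouse entered as a block, and no number is shared between the treatments. The SE of a log2 fold change is its size over the square root of F. Cxcr6, Cd4, Cd8a and Cd8b1 define classes and are left out of counts of calls. Thinning to 400 UMIs was computed as the exact expectation; co-detection divides the expected number of cells with both genes by that under independence within each mouse. From each list the called genes, or the pair with the smallest p, were named; values of some genes are not reported here. Intervals and limits cover counting error only, and no doublet caller was run. Depth per library is given with the results.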

Additional observations from a re-analysis of the deposited data

Results flagged for a closer look

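Wells left out of the comparisons also held the transcripts. Of the 195 wells over the mitochondrial limit, 28.7% had a UMI of a member (exact binomial 95% interval 22.5% to 35.6%). These wells held 187 member UMIs, or 744 CPM, among them 79 of Tcf7, 36 of Klf2 and 30 of S1pr1, and 119 UMIs of Cxcr6. The 223 wells under the UMI minimum held 46 member UMIs, or 1267 CPM, and the kept cells were at 1093 CPM. The 20 empty wells had a median of 40 UMIs, against 1046 in the wells over the mitochondrial limit, and no UMI of a member. At the level of the kept cells 1.20 member UMIs would be expected in all empty wells together, so their 0 gives little to compare with.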

How the results depend on the processing

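No member was called in any comparison under any alternative run, except Tcf7 in the Cxcr6 comparison with no filter on low counts (1 member called). Counts of genes called changed as follows. In the Cxcr6 comparison (0 genes) edgeR gave 1 with DESeq2's size factors, 15 with no filter, 2 with no replicate block, 5 without ribosomal RNA genes, 1 at a UMI minimum of 800, 2 with no mitochondrial limit and 1 with thinned cells, and DESeq2 gave 6. Between Cd4 and Cd8 cells (2 genes) DESeq2 gave 9, no filter 57 and thinned cells 1. Between TAT-CRE and PBS mice (0 genes) DESeq2 gave 1 and no filter 8 over all cells, and no filter gave 1 in Cd8 cells. Leaving out 1 mouse gave 0 genes in these comparisons and 2 to 3 between Cd4 and Cd8 cells.

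The difference in the thinned share of cells with a member was -10.4 points without thinning and -7.55 to 1.64 points with 1 mouse left out. The co-detection ratio stayed between 1.78 and 2.18. Leaving out cells with B cell, endothelial or myeloid markers, a choice made after seeing the data for these values, gave -2.58 points and a ratio of 1.99.

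All 7 members tested kept a log2 fold change below 0 in Cxcr6 cells under every alternative that could be fitted. Reversals elsewhere concerned values that no test called. Between TAT-CRE and PBS mice, Foxp1 was at -0.26 with a mitochondrial limit of 20% and -0.050 without cells holding markers of other cells. In Cd8 cells, Klf2 was at 0.25 with thinned cells, Satb1 at 0.061 with no mitochondrial limit and Foxp1 at -0.47 with a limit of 20%. In the test of a difference between treatments, Foxp1 was at -0.023 with no filter, -0.030 without cells holding other markers and -1.49 with thinned cells; Ccr7 was at 0.45 with no mitochondrial limit and 1.75 without cells holding other markers, and Klf2 at 0.27 in the latter setting. Between Cd4 and Cd8 cells, Klf2 was at 0.53 with no replicate block and 0.42 with a mitochondrial limit of 20%, and with no filter Tcf7 was at -0.080 and Ets1 at -0.23.

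With 1 mouse left out, ranges over all cells were -0.091 to 0.40 for Tcf7, -0.73 to 0.26 for Lef1, -0.81 to 0.61 for Klf2, -0.53 to 0.16 for Bach2 and -0.12 to 0.14 for Foxp1. In Cd8 cells they were -0.30 to 2.30 for Lef1, -0.82 to 0.37 for Klf2, -2.66 to 0.41 for Ccr7, -1.33 to 0.10 for S1pr1, -0.32 to 0.25 for Satb1 and -2.52 to 1.32 for Ccl4. For the difference between treatments they were -1.94 to 4.88 for Ccr7, -1.30 to 0.55 for Satb1 and -0.96 to 0.70 for Foxp1, and between Cd4 and Cd8 cells -1.03 to 0.32 for Klf2. The cause of these changes was not tested. Where PBS was left with 1 mouse, that mouse is assumed to vary like the others. The 2 PBS mice, the 85 Cd4 cells and the sparse counts of Ccr7 and Bach2 limit what could be detected.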
